A study of Mus musculus with 15 samples.

Results

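Prph, P2rx3, Nefl, Nefm, Nefh and Pmp22, genes that mark sensory ganglia and their glia, were followed through every RNA pool of a microarray study of the newborn mouse pituitary. They are 6 of the 18193 genes measured, and all 12 of their probe sets were read. The genes were selected on these same levels, which differed widely between pools of one label, so the levels are given as a description with no test.

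Each array held RNA pooled from pituitaries at postnatal day 1. There were 5 pools of Pit1 dw/dw pituitaries and 5 pools of Pit1 wild-type pituitaries, both on the DW/J background. The third group held 5 pools, whose genotype is not reported here. It was read pool by pool, no difference from it was tested, and its spread entered the fit described below. All mice were on high fat chow, RNA was prepared with 1 kit, and biotin-labelled cRNA was hybridised to an Affymetrix whole-genome mouse array. Pit1 is a pituitary transcription factor needed for the cells that make growth hormone, prolactin and thyrotropin, and dw/dw is the Snell dwarf mutation of it. The labels do not say how many pituitaries made up each pool. Nothing in the labels says that pools came from separate litters, so an error here measures the spread between pools. Values are log2 signals, on which 1 unit is a factor of 2, and levels are compared only within a probe set.

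Sensory ganglia hold the cell bodies of neurons that carry touch, pain and temperature from the periphery. Their axons are filled with intermediate filaments and are wrapped by Schwann cells, while satellite glia enclose the cell bodies. The trigeminal ganglia lie beside the pituitary at the base of the skull, so a dissection can reach them. The pituitary itself holds endocrine cells in its anterior and intermediate lobes, and axon endings of hypothalamic neurons with glia in its neural lobe.

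The 15 arrays had medians between 4.31 and 4.43 log2 units, correlated pairwise at 0.941 to 0.992, and no 2 arrays held identical values. Pituitary genes were high in all of them: Pomc, the precursor of adrenocorticotropin, lay between 13.19 and 14.17, and the pituitary homeobox gene Lhx3 between 7.80 and 8.88. Growth hormone (Gh) lay between 7.15 and 10.31 in the dw/dw pools and between 14.15 and 14.28 in the wild-type pools. One label field of wild-type pool 1 gives another genotype than its title. It was kept by its title, and its Gh of 14.22 lay within the range of the other wild-type pools. Its Ptgds, the prostaglandin D synthase of meninges, stood at 13.50, above the 10.17 to 10.83 of the other wild-type pools and within the 13.05 to 13.61 of the dw/dw pools. In the third group pools 1, 2 and 3 had Gh at 13.58, 14.07 and 14.03 and pools 4 and 5 at 8.99 and 10.24, so these pools did not share 1 endocrine profile.

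Prph encodes peripherin, the intermediate filament of neurons with peripheral axons. It lies on chromosome 15 at 99053579 to 99058978 (GRCm38.p6). Its responsive probe set read 3.41, 7.79, 9.89, 3.78 and 3.51 in dw/dw pools 1 to 5. It read 2.98, 3.05, 10.59, 3.74 and 3.34 in wild-type pools 1 to 5. In the third group it read 4.96, 4.21, 10.46, 8.93 and 3.38. The 5 pools high in Prph, namely dw/dw pools 2 and 3, wild-type pool 3 and pools 3 and 4 of the third group, therefore lay at 7.79 or above, and the other 10 lay at 4.96 or below, with no value in the 2.83 log2 units between. The dw/dw and wild-type ranges overlapped, since each group held low and high pools. The other 3 Prph probe sets were dim: their values lay between 2.54 and 5.20, and 2 of the 3 never passed 4.37, the median of the whole table.

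The promoter sequences of the only members with an entry in the RefSeq table, Prph and Pmp22, are shown because these genes ordered the pools differently, as described below. They are the 250 bases before a transcription start, plus strand, build GRCm38.p6. A pair of short motifs was searched on both strands. One was TATAAA, the TATA box, found in 4063 of 32851 promoters of the same length (12.4%), and the other was ACAAAG, a core sequence recognised by SOX factors, found in 5408 (16.5%). The letters of the 2 motifs were counted separately, and capitals mark a match.
Prph, chr15:99054924-99055173: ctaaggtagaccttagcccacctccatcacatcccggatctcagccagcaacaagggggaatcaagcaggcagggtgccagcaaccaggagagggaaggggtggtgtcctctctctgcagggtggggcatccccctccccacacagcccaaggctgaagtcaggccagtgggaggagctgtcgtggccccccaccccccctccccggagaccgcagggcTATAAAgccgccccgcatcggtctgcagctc
Pmp22 start 1, chr11:63128732-63128981: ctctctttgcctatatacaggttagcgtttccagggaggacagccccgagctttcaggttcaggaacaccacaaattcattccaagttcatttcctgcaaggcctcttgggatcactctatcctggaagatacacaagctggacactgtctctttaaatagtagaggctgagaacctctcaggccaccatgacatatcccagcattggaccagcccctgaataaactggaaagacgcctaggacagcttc
Pmp22 start 2, chr11:63131207-63131456: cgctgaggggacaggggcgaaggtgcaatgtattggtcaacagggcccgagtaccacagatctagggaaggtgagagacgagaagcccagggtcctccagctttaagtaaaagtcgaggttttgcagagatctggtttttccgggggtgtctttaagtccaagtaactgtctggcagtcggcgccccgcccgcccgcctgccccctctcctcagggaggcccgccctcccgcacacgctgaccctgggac
The Prph window holds 1 TATAAA, which begins 31 bases before the start, and no ACAAAG. It lies inside the span of the Prph gene record, which begins upstream of this start. None of the 4 Pmp22 start windows in the table holds either motif. A match or its lack in these windows is a description of the letters alone.

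P2rx3 encodes an ATP-gated ion channel of pain-sensing neurons, on chromosome 2 at 84996549 to 85037108. It read 3.12, 6.50, 8.91, 3.75 and 7.43 in dw/dw pools 1 to 5. It read 3.35, 3.25, 9.74, 3.80 and 2.22 in the wild-type pools and 4.56, 3.41, 9.46, 8.21 and 2.96 in the third group. The 5 pools high in Prph were high again, and dw/dw pool 5, low in Prph, joined them. The lowest of these 6 pools stood at 6.50 and the highest of the other 9 at 4.56. The other 2 P2rx3 probe sets were dim, at 2.77 to 5.37 and 2.74 to 3.88.

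**Figure D1:**
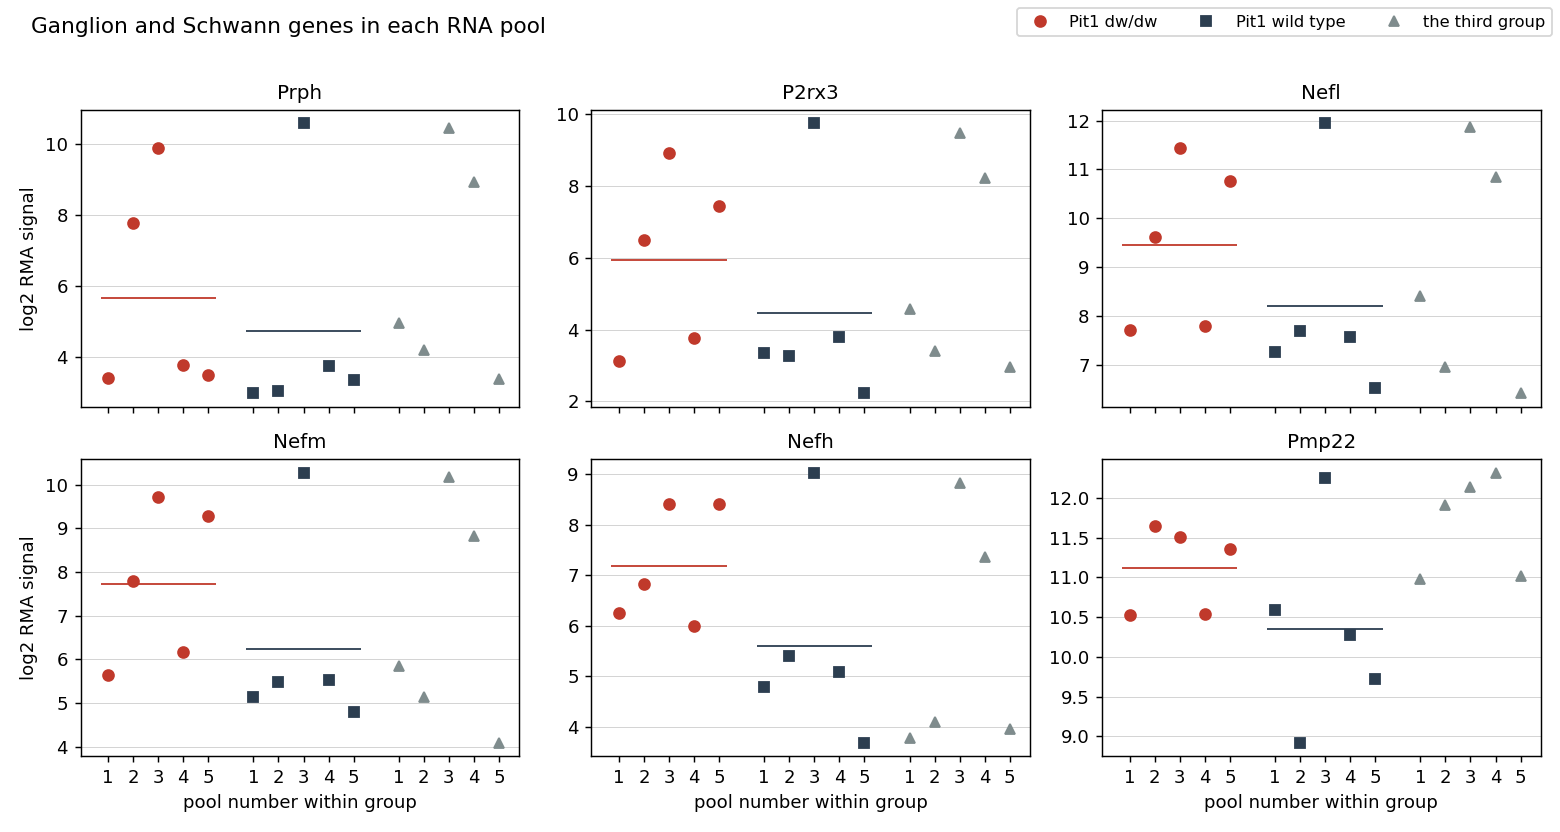
Log2 RMA signal (vertical axes) of the 6 genes in each pool (horizontal axes, pool number within group) on the brightest probe set of each gene. Points are single pools and lines are the means of the 5 dw/dw and the 5 wild-type pools. Prph is high in dw/dw pools 2 and 3, wild-type pool 3 and pools 3 and 4 of the third group, and dw/dw pool 5 joins them for P2rx3, Nefl, Nefm and Nefh.

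Nefl, Nefm and Nefh encode the light, medium and heavy neurofilament subunits, which set the calibre of large axons. Nefl and Nefm are neighbours on chromosome 14, at 68083863 to 68089095 and at 68119545 to 68125004, and Nefh is on chromosome 11 at 4938754 to 4948064. Nefl read 7.70, 9.61, 11.43, 7.79 and 10.76 in the dw/dw pools. It read 7.27, 7.68, 11.94, 7.57 and 6.53 in the wild-type pools and 8.42, 6.96, 11.87, 10.83 and 6.41 in the third group. Its second probe set had the same 6 pools on top, at 8.58 to 11.08, against 5.26 to 7.32 in the other 9.

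Nefm read 5.66, 7.80, 9.72, 6.18 and 9.28 in the dw/dw pools. It read 5.14, 5.48, 10.27, 5.52 and 4.79 in the wild-type pools and 5.85, 5.15, 10.17, 8.82 and 4.10 in the third group. Nefh read 6.25, 6.83, 8.41, 5.99 and 8.41 in the dw/dw pools. The wild-type pools had Nefh at 4.80, 5.40, 9.03, 5.09 and 3.69, and the third group at 3.78, 4.11, 8.82, 7.36 and 3.96. For both subunits the same 6 pools again lay above the other 9. In both, dw/dw pools 1 and 4, which are low in Prph and P2rx3, stood above every wild-type pool but pool 3. These 2 dw/dw pools had Nefm at 5.66 and 6.18 and Nefh at 6.25 and 5.99, while the highest of the other 4 wild-type pools had Nefm at 5.52 and Nefh at 5.40.

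Pmp22 encodes peripheral myelin protein 22, a membrane protein of the Schwann cell's compact myelin that other cell types also make in smaller amounts. It lies on chromosome 11 at 63128982 to 63159547. It read 10.52, 11.65, 11.51, 10.54 and 11.36 in the dw/dw pools. It read 10.60, 8.92, 12.25, 10.28 and 9.72 in the wild-type pools and 10.98, 11.91, 12.14, 12.32 and 11.02 in the third group. Its levels formed a graded series with no wide gap, from wild-type pools 2 and 5 at the bottom to pools 3 and 4 of the third group and wild-type pool 3 at the top. Pool 2 of the third group had Pmp22 at 11.91, the fourth highest of the 15, with Prph at 4.21 and P2rx3 at 3.41.

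The SD among pools of a group exceeded the difference between the 2 group means for Prph, P2rx3, Nefl and Nefm in both groups, and for Nefh and Pmp22 in the wild-type pools. Prph averaged 5.68 ± 2.99 log2 units in dw/dw pools and 4.74 ± 3.28 in wild-type pools (SD, n = 5 each). P2rx3 averaged 5.94 ± 2.45 in dw/dw pools and 4.47 ± 3.00 in wild-type pools. Nefl averaged 9.46 ± 1.69 in dw/dw pools and 8.20 ± 2.14 in wild-type pools. Nefm averaged 7.73 ± 1.81 in dw/dw pools and 6.24 ± 2.27 in wild-type pools. Nefh averaged 7.18 ± 1.17 in dw/dw pools and 5.60 ± 2.02 in wild-type pools. Pmp22 averaged 11.12 ± 0.54 in dw/dw pools and 10.35 ± 1.24 in wild-type pools. In pooled tissue, fewer cells of a type and less RNA per cell cannot be told apart.

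The members followed each other to different degrees. Over the 15 pools the Pearson correlation with Prph was 0.908 for P2rx3, 0.870 for Nefl, 0.853 for Nefm, 0.749 for Nefh and 0.742 for Pmp22. P2rx3 and Nefl correlated at 0.988, Nefl and Nefm at 0.993 and Nefm and Nefh at 0.950. These values span high and low pools. In the 9 pools low in both Prph and P2rx3 the correlation with Prph was 0.713 for P2rx3, 0.479 for Nefl, 0.384 for Nefm, -0.350 for Nefh and 0.567 for Pmp22. Choosing pools by these genes narrows Prph to 2.98 to 4.96, mostly under the table's median of 4.37. Values in the 9 pools are therefore not comparable with those over the 15. These coefficients describe 15 pools that share 1 platform and 1 normalization, and they have no p-value.

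**Figure D2:**
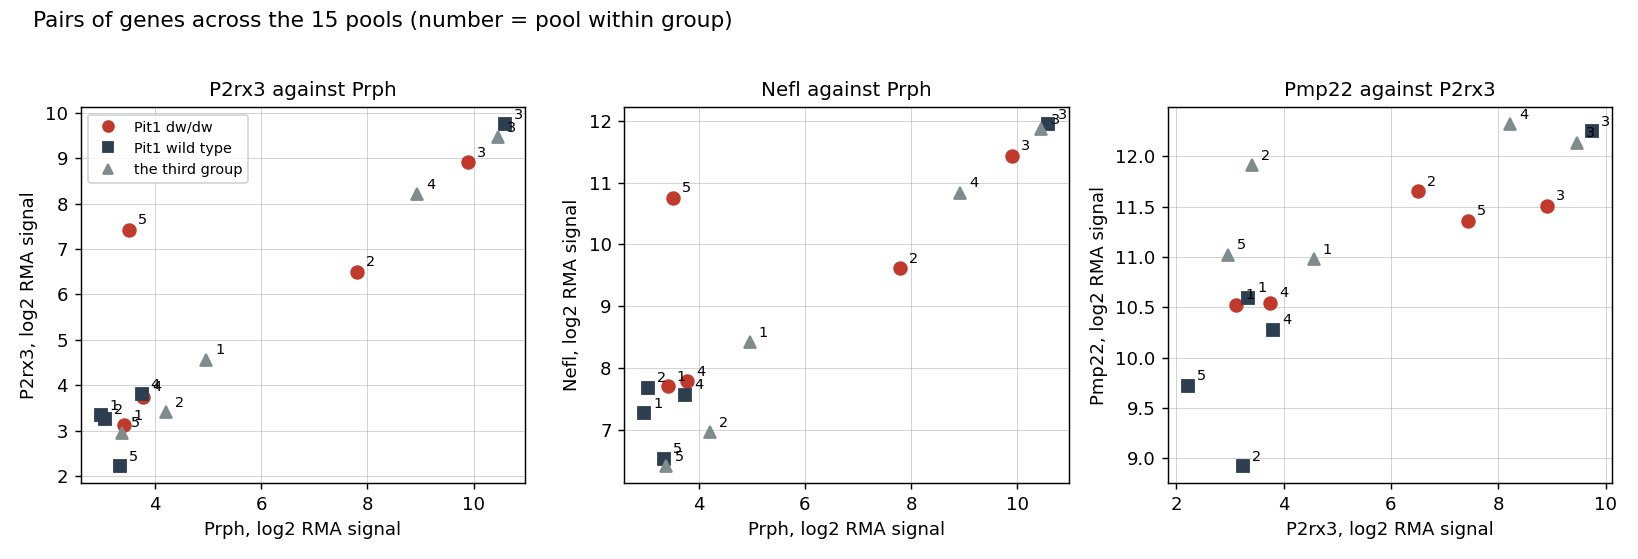
Log2 RMA signal of P2rx3 and of Nefl against Prph, and of Pmp22 against P2rx3 (both axes in log2 units), 1 point a pool with its number within the group. dw/dw pool 5 is the point with Prph at 3.51 and P2rx3 at 7.43, and pool 2 of the third group has Pmp22 at 11.91 with P2rx3 at 3.41.

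Other neuronal genes divided between the 2 patterns. Of all genes, 1633 spanned 2 log2 units or more over the pools. In 51 of them (3.12%) the 5 Prph-high pools all lay above the other 10, and in 73 (4.47%) the 5 pools and dw/dw pool 5 all lay above the other 9, with 20 genes in both counts. Among 13 genes of that span from a list of sensory receptors, channels and peptides, 7 had the first pattern: Avil, Ret, Tac1, Trpv1, Scn9a, Scn10a and Scn11a. Another 3 genes of this list, P2rx3, Scn9a and Asic3, an acid-sensing channel, had the second pattern. Scn9a had both. Among 14 such genes of a neuronal cytoskeleton and axon list, none but Prph, whose level set the 5 pools, had the first pattern. Nefl, Nefm, Nefh, Gap43, Stmn2, Stmn3 and Sncg of this list had the second. For Gap43 the margin was narrow, with 6.62 in dw/dw pool 2 against 6.60 in wild-type pool 1. Genes of that span with neither pattern included Tubb3, Mapt and Thy1 of the axon list and Ngfr and Calcb of the receptor list. Sncg encodes gamma-synuclein, Gap43 a growth cone protein, and Stmn2 and Stmn3 are stathmins that regulate microtubules. The lists were drawn up with earlier results of these data known, so these counts are a description. They include Prph and P2rx3, which have their patterns by definition, since the pools were divided by their levels.

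Avil encodes advillin, an actin-binding protein of sensory neurons. It read 4.02, 6.17, 9.02, 4.37 and 4.55 in the dw/dw pools. It read 4.15, 4.07, 9.66, 4.67 and 3.83 in the wild-type pools and 5.03, 4.39, 9.59, 7.92 and 3.75 in the third group. dw/dw pool 5 was thus among the low pools. Ret, the signalling receptor for the GDNF family of growth factors, stood at 6.74 in that pool, below the 8.46 to 10.96 of the 5 Prph-high pools. Tac1, the precursor of substance P, stood at 6.89 there, Trpv1, the capsaicin and heat channel, at 3.34, and the sodium channel Scn10a at 3.31. The 5 Prph-high pools had Tac1 at 8.51 to 10.60, Trpv1 at 4.04 to 6.13 and Scn10a at 4.46 to 7.04.

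Sncg, in contrast, stood at 7.87 in dw/dw pool 5, between the 6.29 and 8.90 that bound the 5 Prph-high pools and above the 3.15 to 4.89 of the other 9. Asic3 stood at 7.59 in dw/dw pool 5, against 6.22 to 8.55 in the 5 and 4.55 to 5.95 in the other 9. Pou4f1, a POU-domain transcription factor of sensory neurons, stood at 8.98, against 8.55 to 10.29 in the 5 and 6.08 to 7.97 in the other 9. Slc17a6, the vesicular glutamate transporter of sensory and many central neurons, stood at 9.19, against 8.23 to 10.15 in the 5 and 6.21 to 7.88 in the other 9. dw/dw pool 5 therefore carried neurofilament, Sncg, Asic3, Pou4f1 and Slc17a6 signal at the level of the Prph-high pools and Prph, Avil, Ret, Trpv1 and Scn10a signal within the range of the low pools.

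**Figure D3:**
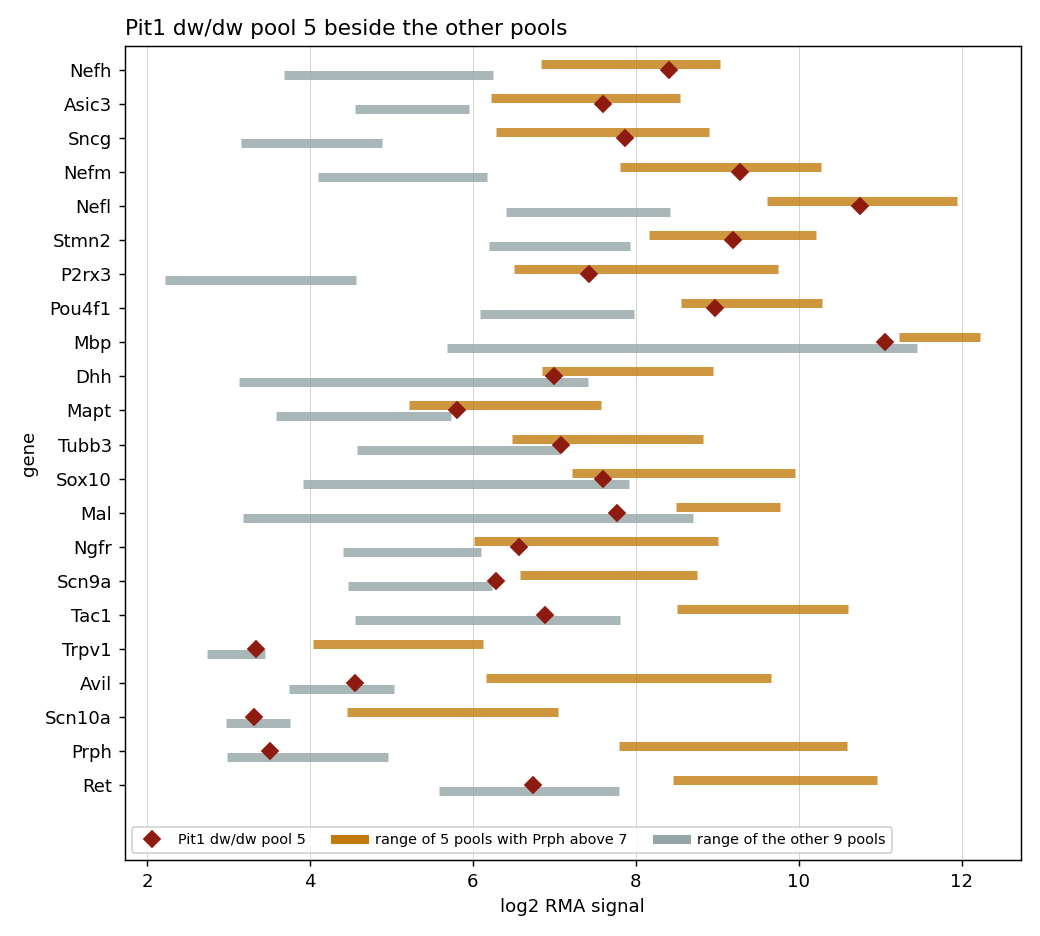
Log2 RMA signal (horizontal axis) in dw/dw pool 5 (diamonds), with the range over the 5 pools with Prph above 7 (orange bars) and over the other 9 pools (grey bars), for list genes whose means over the 5 and the 9 pools differ by 2 log2 units or more. The diamond lies in the orange range for Nefl, Nefm, Nefh and Sncg and in the grey range for Prph, Avil, Ret and Trpv1.

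Few of the listed transcription factors of sensory neurons that were matched by symbol varied with the members. Of 13 symbols on the list, 11 were matched and 3 of them spanned 2 log2 units or more. The listed Drgx was measured under its other symbol, Prrxl1, and is not in these counts. Prrxl1 lay between 6.27 and 8.98 in the 5 Prph-high pools and between 3.34 and 5.01 in the rest. Isl2, a LIM homeobox gene, was highest in wild-type pool 3 at 5.98, pool 3 of the third group at 5.65 and dw/dw pool 3 at 5.49, and it stayed at 4.35 or below in the other 12. Shox2 lay between 2.36 and 4.70 with no separation of the Prph-high pools. Of the 11, 5 stayed under the table's median of 4.37 in every pool. In the list of autonomic neuron genes, which mark sympathetic and parasympathetic ganglia, all 8 measured genes stayed under that median in all 15 pools. Th, the first enzyme of catecholamine synthesis, lay between 2.63 and 3.67 and Chat, which makes acetylcholine, between 2.84 and 3.97.

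Genes of Schwann cells and satellite glia were wide-ranging too. In none of the 18 that spanned 2 log2 units or more were the 5 or the 6 pools alone set apart from the rest. Pool 2 of the third group stood high beside them. The glial list mean, as the difference from each gene's mean over the pools, was 0.31 to 1.40 in the 6 pools and that pool. It was -0.16 or below in the rest. Pmp22 had the same pools on top, at 11.36 or above, against 11.02 or below in the rest, and so had Mbp. Mbp, a myelin protein of both Schwann cells and oligodendrocytes, read 8.58, 11.23, 11.51, 9.50 and 11.06 in the dw/dw pools. It read 10.24, 6.61, 12.22, 8.35 and 5.69 in the wild-type pools and 9.31, 11.46, 11.75, 12.21 and 10.09 in the third group. Wild-type pools 2 and 5 were the lowest, as for Pmp22, and pool 2 of the third group was again among the high ones. Sox10, the transcription factor that specifies peripheral glia, was lowest in wild-type pools 5 and 2 at 3.92 and 4.73 and highest in wild-type pool 3 at 9.96. Dhh, the hedgehog ligand of Schwann cells, was lowest in wild-type pools 2 and 5 at 3.12 and 3.16 and highest in pool 4 of the third group at 8.95, with 7.41 in pool 2 of that group. Mal, a membrane protein of myelin, lay at 3.18 and 3.43 in wild-type pools 2 and 5 and between 5.97 and 9.77 in the other 13 pools.

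The genes most like each head gene were ranked by Pearson correlation over the 15 pools among the 8832 genes spanning 1 log2 unit or more. The 10 nearest to Prph outside the members were Avil (0.983), Prrxl1 (0.973), Ppp1r1c (0.969), Tyrp1 (0.969), Trarg1 (0.964), Tafa4 (0.959), Trim36 (0.959), Ret (0.958), Trpv1 (0.946) and Pirt (0.944). Prrxl1 is a homeobox gene of sensory ganglia and Pirt a regulator of TRP channels, while Tyrp1 is a pigment enzyme and Trarg1 a protein known from glucose transporter traffic. Within the 10 pools with Prph under 7, the same 10 genes correlated with Prph at -0.07 to 0.766. Tyrp1 read 3.31, 4.53, 7.34, 3.48 and 3.41 in the dw/dw pools, 3.52, 3.22, 7.89, 3.21 and 3.26 in the wild-type pools and 3.96, 4.06, 7.42, 6.19 and 3.54 in the third group. Its high pools were those of Prph.

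The 10 nearest to Pmp22 were Art3 (0.965), Dhh (0.959), Mal (0.958), Efhd1 (0.944), Mbp (0.941), Pou3f1 (0.939), Cryab (0.938), S100a6 (0.932), Rgs7bp (0.928) and Acss1 (0.927). Pou3f1 is a transcription factor of myelinating Schwann cells and Cryab a small heat shock protein abundant in myelin and muscle. Within the 10 pools with Prph under 7 these genes correlated with Pmp22 at 0.885 to 0.957. Choosing pools by Prph narrows Prph to 2.98 to 4.96 and leaves Pmp22 at 8.92 to 11.91, so these values and those of the Prph set are not comparable, and they have no test. Art3, an ADP-ribosyltransferase family member, read 4.98, 7.58, 7.87, 5.85 and 7.17 in the dw/dw pools, 5.12, 3.71, 8.43, 4.79 and 3.99 in the wild-type pools and 6.39, 7.48, 7.70, 8.38 and 6.25 in the third group. Wild-type pools 2 and 5 were the lowest again.

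The mean over a whole list, taken as the difference from each gene's mean over the 15 pools, varied widely among the pools of each group. For the 18 axon genes it ran from -0.90 to 1.47 in dw/dw pools, from -1.17 to 1.92 in wild-type pools and from -1.40 to 1.86 in the third group, and for the 22 receptors, channels and peptides from -0.58 to 1.08, from -0.87 to 1.59 and from -0.91 to 1.49 in the same groups. For the 21 glial genes it ran from -0.78 to 0.68 in dw/dw pools, from -1.55 to 1.26 in wild-type pools and from -0.22 to 1.40 in the third group. Wild-type pool 3 had the highest neuronal means of the 15, and pool 4 of the third group had the highest glial mean.

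**Figure D4:**
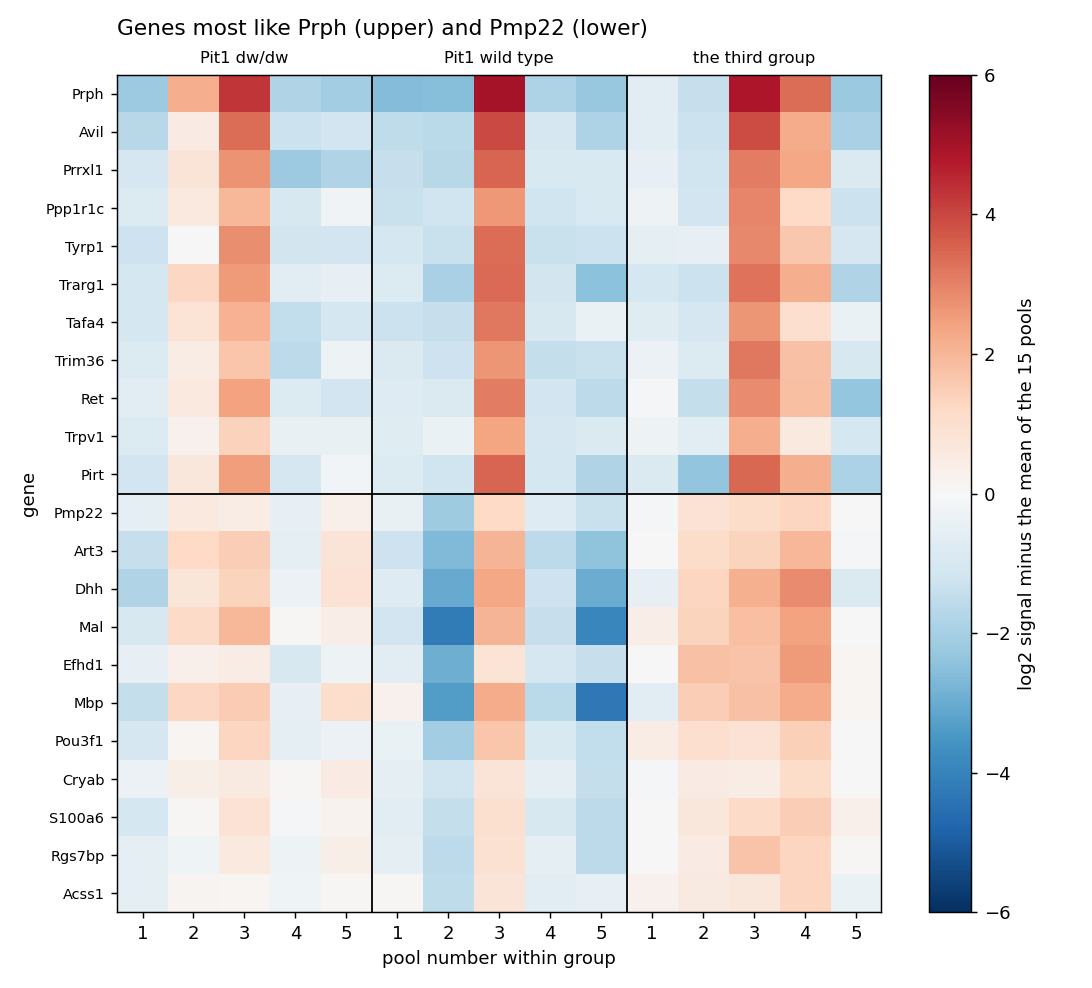
Log2 signal minus the mean of the 15 pools (colour) for Prph with its 10 nearest genes (upper block) and Pmp22 with its 10 nearest genes (lower block), pools by group and number. The Prph block is highest in the 5 Prph-high pools, whereas the Pmp22 block grades over the pools and, for all its genes but Acss1, is lowest in wild-type pools 2 and 5.

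Among markers of other neighbouring tissues, those of bone and cartilage ordered the pools differently from the members. Of 10 measured bone and cartilage genes, 8 spanned 2 log2 units or more and none set apart the 5 or the 6 pools. The list mean ran from -1.13 to 1.07 in dw/dw pools, from -2.01 to 0.67 in wild-type pools and from -0.14 to 1.70 in the third group. Ibsp, bone sialoprotein, read 7.84, 6.94, 4.52, 4.09 and 10.07 in the dw/dw pools. It read 9.69, 3.03, 3.13, 9.48 and 8.75 in the wild-type pools and 9.92, 7.50, 9.86, 7.61 and 10.79 in the third group. Wild-type pool 3, highest of its group in all 6 members, was thus near the bottom in Ibsp, and dw/dw pool 5 was high in Ibsp as well as in the neurofilaments. The listed genes differed in wild-type pool 3: Mmp13 and Dmp1 were also low there, at 3.33 and 4.04, whereas Acan stood at 9.24. Among 14 measured genes of the neural lobe, hypothalamus and central glia, 1 gene, Slc17a6, had the second pattern. The hormone genes Avp and Oxt lay between 3.63 and 4.21 and between 3.67 and 4.73 in all pools. The neural lobe holds only axon endings of the neurons that make them, so these levels say little about neural lobe tissue. Gfap, an astrocyte filament that satellite and Schwann cells can also make, lay between 2.82 and 6.81. Aqp4, a water channel of astrocytes, lay between 4.80 and 9.19. Both were lowest in wild-type pool 5 and highest in pool 4 of the third group. The mean of this neural and central glia list was highest in wild-type pool 1 at 0.70. Next were wild-type pool 3 at 0.59 and pools 4 and 3 of the third group at 0.49 and 0.35, which are Prph-high pools. The part of these tissues in the members' levels was not tested.

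The gonadotropin subunit genes stood low in the dw/dw pools that were high in Prph and low in Xist. Lhb read 10.25, 7.19, 7.17, 9.98 and 10.36 in dw/dw pools 1 to 5, with pools 2 and 3 lowest. It read 10.19, 9.99, 9.09, 7.71 and 8.35 in the wild-type pools, where pool 4, with Prph at 3.74, was lowest and pool 3 was not. Xist, expressed from the inactive X chromosome of females, read 11.03, 4.20, 3.89, 9.82 and 9.60 in the dw/dw pools. It read 11.14, 10.26, 10.19, 3.69 and 10.89 in the wild-type pools. Thus dw/dw pools 2 and 3 were also the 2 dw/dw pools with low Xist, while wild-type pool 3 had high Xist. Wild-type pool 4, lowest of its group in Lhb and also in Fshb at 6.73, was the wild-type pool with low Xist. Low Lhb thus went with low Xist in both groups, and with high Prph in the dw/dw pools only. The part of pup sex in the members' levels was not tested.

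The fit of dw/dw against wild-type pools gives a change and an SE for each member, as a description. Genes selected for a wide spread within a label have a large SE by that choice, so that none of the 6 passed the threshold is no result about them. At an unadjusted p under 0.05 there were 0 of 6, beside 8.46% of all genes. In a limma fit over all genes, 140 of 18193 genes (0.770%) passed an adjusted p of 0.05, 30 of them higher and 110 lower in dw/dw pools. The median change of the 6 members was 1.36 log2 units, beside -0.02 over all genes. Their changes were 0.94 for Prph (SE 1.74, adjusted p = 0.960), 1.47 for P2rx3 (SE 1.56, adjusted p = 0.897) and 1.26 for Nefl (SE 1.17, adjusted p = 0.875). Nefm changed by 1.49 (SE 1.25, adjusted p = 0.852), Nefh by 1.58 (SE 1.06, adjusted p = 0.779) and Pmp22 by 0.77 (SE 0.484, adjusted p = 0.743). Each SE carries the spread between pools of 1 label, taken over all 15 arrays and so including the third group. The dw/dw and wild-type values overlapped for all 6 genes.

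These values moved with the pools included. With wild-type pool 3 left out, the changes of Prph, P2rx3, Nefl, Nefm, Nefh and Pmp22 became 2.40, 2.79, 2.20, 2.49, 2.44 and 1.24, all in the same direction, and none passed (lowest adjusted p = 0.230, for Pmp22). Without dw/dw pool 3 the change of Prph turned to -0.12. With the 5 Prph-high pools left out, the changes were 0.29 for Prph, 1.61 for P2rx3, 1.49 for Nefl, 1.80 for Nefm, 2.14 for Nefh and 0.93 for Pmp22, and none passed (0.280% of all genes did). In the remaining 3 dw/dw and 4 wild-type pools, Nefl lay between 7.70 and 10.76 in dw/dw pools and between 6.53 and 7.68 in wild-type pools. Nefm lay between 5.66 and 9.28 in dw/dw pools and between 4.79 and 5.52 in wild-type pools. Nefh lay between 5.99 and 8.41 in dw/dw pools and between 3.69 and 5.40 in wild-type pools. These 3 members did not overlap between the groups, which held for 3.02% of all genes in that direction, and the other 3 members overlapped. With dw/dw pool 5 left out as well, a choice made after the values were seen, the change of P2rx3 was 0.28, of Nefl 0.48, of Nefm 0.68, of Nefh 1.38 and of Pmp22 0.66, and none passed (0.143% of all genes did). Leaving out pools by Prph or P2rx3 narrows these genes in the pools left, so their changes there are not comparable with those of the other members.

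**Figure D5:**
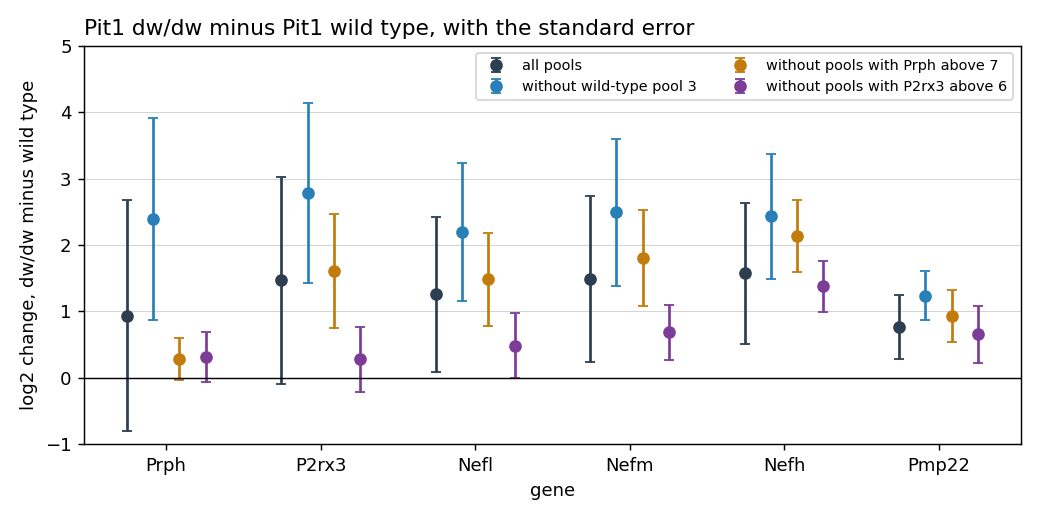
Log2 change, dw/dw minus wild type (vertical axis), of each of the 6 genes with its standard error, from fits with all pools, without wild-type pool 3, without pools above 7 in Prph and without pools above 6 in P2rx3. Prph is at 0.94 with all pools and 0.29 without the Prph-high pools, and Nefh runs from 1.38 to 2.44 over the 4 fits. Leaving out pools by Prph or P2rx3 narrows these genes in the pools left. Their changes in those fits are therefore not comparable with those of the other genes.

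None of the 18 cytoskeleton and axon genes (median change 0.24), 11 transcription factors (-0.06), 22 receptors, channels and peptides (-0.02), 21 glial genes (0.55) or 8 autonomic genes (-0.04) passed. At an unadjusted p under 0.05 there were 1 axon gene, 2 transcription factors, 0 receptors, channels and peptides, 2 glial genes and 0 autonomic genes, beside 8.46% of all genes. These 5 lists held no call without the 5 Prph-high pools or without dw/dw pool 5 as well. Among the glial genes the largest change was that of Mal, 2.25 (SE 0.945, adjusted p = 0.508), with wild-type pools 2 and 5 far below the rest. Among the axon genes the lowest was that of Thy1, a neuronal surface glycoprotein also present on other cells, at -1.80 (SE 0.782, adjusted p = 0.532). Thy1 stood at 4.64 to 7.56 in dw/dw pools and at 6.46 to 8.84 in wild-type pools, with wild-type pool 3 highest. Ptgds from the fibroblast and meninges list did pass, with a change of 2.10 (SE 0.453, adjusted p = 0.042), and in wild-type pool 1 it lay at the dw/dw level as given above. Elsewhere in the lists, 3 pituitary hormone genes fell in dw/dw pools, Gh by 5.40 (adjusted p = 0.00586), Tshb, the thyrotropin beta chain, by 5.13 (adjusted p = 0.000244) and Prl, prolactin, by 1.25 (adjusted p = 0.00259). The muscle gene Actn2 fell by 1.01 (adjusted p = 0.0194), with means of 3.80 in dw/dw pools and 4.81 in wild-type pools. Without the 5 Prph-high pools Ptgds (adjusted p = 0.368) and Actn2 (adjusted p = 0.294) no longer passed, while Gh, Prl and Tshb did. With dw/dw pool 5 left out as well, Tshb alone of these 5 genes passed (adjusted p = 0.0199), with Gh at an adjusted p of 0.0726 and Prl at 0.131. These fits hold fewer pools. In their order, the change of Ptgds was 2.11 and 2.06, that of Gh -5.16 and -5.77 and that of Prl -1.35 and -1.36. Tshb changed by -5.08 and -5.00 and Actn2 by -0.79 and -0.62.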

How the data were processed

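Per the labels, the authors measured total pituitary RNA pools on Affymetrix whole-genome mouse arrays, and RMA is named in the submitters' processing notes. The deposited table holds log2 values for 45101 probe sets on 15 arrays, between 1.83 and 14.8. RMA shares a normalization over all arrays, so pools rich in another tissue enter every array's scale. No version of RMA is recorded in the labels, and the number of arrays limits the precision. Pools were grouped by title, and the genotype of the third group is not reported here.

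Probe sets were named through the platform annotation: 34945 have 1 gene, 932 several, 9160 none, and 64 are controls. Each gene was read on the probe set that averaged highest over the 15 arrays, while members were read on all. The 18193 genes were fitted with limma 3.58.1 in R 4.3.3 (3 group means over the 15 arrays, lmFit and eBayes, two-sided, Benjamini-Hochberg over all genes). The script was tested on simulated data first. Correlations rank likeness only. Genes named are the members, the 10 most like Prph and the 10 most like Pmp22 among genes spanning 1 log2 unit or more, up to 4 widest-ranging genes a list, and list genes past the threshold; Thy1, Xist and the genes counted as separating the pools were picked once their values had been seen. The members and lists were chosen with earlier results of these data known. Promoter sequences are from RefSeq (GRCm38.p6). Alternatives covered centring, a second normalization, probe set choice, dim probe sets, the prior, array weights, the samples fitted, a replicate block and pools left out.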

Additional observations from a re-analysis of the deposited data

Results flagged for a closer look

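In each group of 5 pools, a highest or lowest pool was marked where its gap to the next was over 0.710 of the group's range. This was done for 36 items (the 12 probe sets, list means and the genes most like Prph and Pmp22), which gave 108 group searches, and 23 of them (21.3%) marked a pool. Chance marks about 1 group in 20, but these genes follow each other and were chosen with their values known, so the share cannot be set against chance. Wild-type pool 3 was marked 21 times, dw/dw pool 3 in the other 2, and no pool of the third group.

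For Prph, wild-type pool 3 was marked on all 4 probe sets, with 10.59 (next highest wild-type pool 3.74), 5.20 (next 2.89), 3.82 (next 3.28) and 3.74 (next 3.07). dw/dw pool 3 was marked on 2 dim Prph probe sets, with 3.86 (next 3.21) and 3.44 (next 3.07). Wild-type pool 3 was also marked for P2rx3 at 9.74 (next 3.80), for Nefl at 11.94 (next 7.68) and 11.07 (next 7.04) on its 2 probe sets, and for Nefm at 10.27 (next 5.52). Nefh and Pmp22 marked no pool.

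Among genes most like Prph, wild-type pool 3 was marked for Avil at 9.66 (next 4.67), Prrxl1 at 8.98 (next 4.62), Ppp1r1c at 6.72 (next 3.19), Tyrp1 at 7.89 (next 3.52), Trarg1 at 9.49 (next 5.27), Tafa4 at 7.95 (next 4.38), Trim36 at 7.48 (next 3.97), Ret at 10.96 (next 7.12), Trpv1 at 6.13 (next 3.36) and Pirt at 9.48 (next 5.17). The mean over each list, taken as the difference from each gene's mean over all pools, was marked in wild-type pool 3 at 1.92 for cytoskeleton and axon genes (next -0.38), 0.68 for sensory transcription factors (next -0.05) and 1.59 for receptors, channels and peptides (next -0.44). The mean of the glial list marked no pool.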

How the results depend on the processing

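No member passed the threshold in any of 21 alternatives to the fit of dw/dw against wild-type pools, the lowest adjusted p being 0.230 for Pmp22 without wild-type pool 3. The members were selected for a wide spread within a label, so this is no result about them. Their directions held in these alternatives except for Prph, whose change was -0.12 without dw/dw pool 3. Leaving out 1 pool at a time gave changes of -0.12 to 2.40 for Prph, 0.73 to 2.79 for P2rx3, 0.77 to 2.20 for Nefl, 0.99 to 2.49 for Nefm, 1.10 to 2.44 for Nefh and 0.41 to 1.24 for Pmp22. The count of genes past the threshold over the whole table, 140, became 571 with array weights, and the cause was not tested. It became 51 without the 5 pools above 7 in Prph and 26 without the 6 pools above 6 in P2rx3, an alternative added after seeing the data. Both leave fewer pools. Leaving out 1 pool gave 83 to 161, with 83, 93 and 90 without dw/dw pools 2, 4 and 5 and 86 without wild-type pool 2 or 4. The median correlation of the other 5 members with Prph, 0.853, was 0.818 to 0.973 with 1 pool left out. The labels do not say that pool numbers pair the groups, and pools were not treated as paired: same-numbered dw/dw and wild-type pools had correlations of -0.196, 0.359, 0.639, 0.206 and -0.157 between their deviations from the group means, 2 of 5 below 0. As a hint from the data, 2 of 5 dw/dw pools correlated best with their own number, and pool 3 was the highest of each group in Prph, P2rx3, Nefl, Nefm and Nefh. The replicate block gave 137 genes and an SE of 0.926 for Prph, against 1.74 without it, and no member passed. Signals near the table's median, as on the dim probe sets, carry little information on level.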
